A study of Mus musculus with 4 samples.

Results

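Acute-phase and antibacterial proteins of the colonic epithelium were followed through 6 genes, *Lcn2*, *Saa1*, *Saa2*, *Saa3*, *Reg3b* and *Reg3g*. Each symbol was found on 1 row of a table of 16015 genes, so all 6 of 6 were measured. The 6 genes were chosen by their values in the same libraries that are described here, with the counts of control and *Bmal1* cKO mice in view. The difference between the groups is therefore given for them as a description, with no test. In 4 of the 6 genes, *Lcn2*, *Saa1*, *Saa2* and *Saa3*, both *Bmal1* cKO libraries lay below both control libraries, as they did in 41.7% of all genes tested. *Reg3b* and *Reg3g* overlapped between the groups.

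Bulk RNA was sequenced from colonic epithelial cells of 2 control mice and 2 *Bmal1* cKO mice. Control mice carried *Bmal1* fl/fl alleles without Cre and are labelled WT. *Bmal1* cKO mice carried *Villin-CreERT2* and *Bmal1* fl/fl, a tamoxifen-inducible Cre driven by the promoter of the epithelial gene villin, so that the clock factor BMAL1 would be lost from the intestinal epithelium alone. Cre was activated by tamoxifen on 5 consecutive days, and the methods do not say whether the controls also received it. All mice were C57BL/6, 2 to 4 months old and from the same litter. All 4 drank 3% dextran sulfate sodium (DSS), a polysaccharide that injures the colonic epithelium, for 5 days, were returned to water for 2 days and were sampled on day 7. No library without DSS was analysed here, so the values are levels in injured colon. The cells were crypts released with EDTA and passed through a strainer, and no sort for epithelial cells is described.

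Lipocalin-2, encoded by *Lcn2*, binds the siderophores with which bacteria take up iron and is made by both gut epithelium and neutrophils. Serum amyloid A proteins are acute-phase proteins that carry lipids and retinol and bind bacteria, and in the inflamed gut they are made by the epithelium and, for *Saa3*, also by macrophages and stromal cells. REG3β and REG3γ are secreted C-type lectins that bind and kill bacteria near the epithelial surface. Epithelial cells switch on these genes in response to IL-22 and IL-6 family cytokines, which act through STAT3, and to IL-17, IL-1 and TNF, which act through NF-κB and C/EBP factors.

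The values are normalized counts, that is the reads of a gene over a size factor that puts the libraries on 1 scale. Between 10312791 and 14156639 reads per library fell on listed genes, and 1 read was worth between 0.845 and 1.35 normalized counts. All other genes were compared by limma on log2(normalized count + 1), in a two-sided test whose p-values were adjusted by Benjamini-Hochberg (threshold 0.05). The added 1 makes the fold change of a gene with few reads too small. Of 13983 genes tested, 3871 (27.7%) were lower and 4059 (29.0%) higher in *Bmal1* cKO. Scaling to library totals gave 4885 lower and 3091 higher, and edgeR on the reads 3812 and 3861. Fewer were lower without control mouse 1 (2380), *Bmal1* cKO mouse 1 (2389) or *Bmal1* cKO mouse 2 (2205, and 2654 higher). The fold change ran with the GC content of the transcript (Spearman's rho -0.62 across genes, a description). After each library was corrected for GC content and transcript length, 2201 genes (15.7%) were lower and 2311 (16.5%) higher. The targeted gene *Bmal1*, listed as *Arntl*, stood at 358 and 342 normalized counts in control mice 1 and 2 and at 341 and 289 in *Bmal1* cKO mice 1 and 2, a log2 difference of -0.16 that did not pass the test (limma, standard error 0.14, adjusted p = 0.389). This gene total does not show the floxed stretch alone, so it neither bears out nor contradicts the genotype labels. With 2 mice a group, p-values measure the spread between these mice. In bulk RNA, fewer cells of a type and less RNA per cell cannot be told apart.

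The 6 genes lie on 3 chromosomes of GRCm38. *Lcn2* is at chr2:32384633-32388252. *Saa3* (chr7:46711998-46715700), *Saa1* (chr7:46740497-46742980) and *Saa2* (chr7:46751790-46754313) follow one another, with 24796 bases between *Saa3* and *Saa1* and 8809 between *Saa1* and *Saa2*. *Reg3b* (chr6:78370657-78373466) and *Reg3g* (chr6:78466269-78468872) lie 92802 bases apart. No other listed gene lies in these 3 gaps. The 250 bases before each RefSeq start site are printed to show where motifs matched. They are RefSeq sequences of GRCm38.p6, 5′ to 3′ on the strand of the gene, found for 6 of 6 genes, and the capitals mark motif matches. Among the motifs searched, the C/EBP motif was found in the 4 genes that were lower and not in *Reg3b* and *Reg3g*. It was singled out with the values of the genes known, so this split is a description and no test.

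Lcn2: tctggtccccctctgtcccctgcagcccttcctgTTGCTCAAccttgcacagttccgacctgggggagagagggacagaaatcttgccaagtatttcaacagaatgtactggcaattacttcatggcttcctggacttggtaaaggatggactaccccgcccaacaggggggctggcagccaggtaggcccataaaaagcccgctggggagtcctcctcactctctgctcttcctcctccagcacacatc
Saa1: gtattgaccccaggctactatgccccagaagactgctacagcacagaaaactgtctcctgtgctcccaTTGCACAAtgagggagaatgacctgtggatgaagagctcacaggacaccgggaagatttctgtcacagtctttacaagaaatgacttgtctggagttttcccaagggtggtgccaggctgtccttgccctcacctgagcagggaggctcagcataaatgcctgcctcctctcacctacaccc
Saa2: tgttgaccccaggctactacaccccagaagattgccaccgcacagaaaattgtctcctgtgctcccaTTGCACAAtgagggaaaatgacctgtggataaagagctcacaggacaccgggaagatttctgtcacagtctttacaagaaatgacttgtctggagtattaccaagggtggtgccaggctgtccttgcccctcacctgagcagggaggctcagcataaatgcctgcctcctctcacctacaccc
Saa3: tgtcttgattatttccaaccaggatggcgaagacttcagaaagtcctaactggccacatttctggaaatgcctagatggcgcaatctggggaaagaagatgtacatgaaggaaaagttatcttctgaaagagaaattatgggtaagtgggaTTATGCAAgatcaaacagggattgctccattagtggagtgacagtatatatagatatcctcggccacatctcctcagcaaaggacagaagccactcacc
Reg3b: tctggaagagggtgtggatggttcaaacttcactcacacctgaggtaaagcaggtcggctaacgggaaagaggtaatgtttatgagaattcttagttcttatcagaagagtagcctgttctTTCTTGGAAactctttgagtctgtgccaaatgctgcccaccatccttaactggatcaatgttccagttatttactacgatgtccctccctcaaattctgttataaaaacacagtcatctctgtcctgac
Reg3g: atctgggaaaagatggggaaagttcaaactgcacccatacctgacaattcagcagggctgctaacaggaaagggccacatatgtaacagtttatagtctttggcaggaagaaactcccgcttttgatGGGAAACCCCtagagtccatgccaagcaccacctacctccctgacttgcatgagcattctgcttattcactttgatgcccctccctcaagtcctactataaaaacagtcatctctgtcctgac

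The stretches are chr2:32387740-32387989 (minus strand) for *Lcn2*, chr7:46742981-46743230 (minus) for *Saa1*, chr7:46751583-46751832 (plus) for *Saa2* and chr7:46715677-46715926 (minus) for *Saa3*. Those of *Reg3b* and *Reg3g* are chr6:78370635-78370884 (plus) and chr6:78468875-78469124 (minus). Except for *Saa1*, the RefSeq starts differ from the gene bounds given above, which are those of GENCODE. The stretch of *Lcn2* lies wholly inside the annotated gene, and those of *Saa2*, *Saa3* and *Reg3b* run past its annotated start. Both strands were searched for the C/EBP motif TTGCNNAA, the STAT motif TTCNNNGAA, the E-box CACGTG to which BMAL1 and CLOCK bind, and the NF-kB consensus. The C/EBP motif was found in *Lcn2* (216 bases before the start), *Saa1* (182), *Saa2* (183) and, on the opposite strand, *Saa3* (99), and in 9.57% of all 32841 promoter stretches of that length. The stretches of *Saa1* and *Saa2* are near copies, so their matches are not separate instances. The STAT motif was found in *Reg3b* (129 bases before the start) and in 7.02% of all stretches. The NF-kB consensus was found in *Reg3g* (123 bases) and in 7.25% of all. The E-box was in none of the 6 and in 6.02% of all. No member held more than 1 of these matches, so none overlapped another. A match is a description of the letters and shows no binding, and a motif not found says only that these letters are not in this window.

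*Lcn2* had 1201 and 3486 normalized counts in control mice 1 and 2, and 12.3 and 4.06 in *Bmal1* cKO mice 1 and 2. The latter rest on 12 and 3 reads. Both control mice were far above both *Bmal1* cKO mice, although the control mice themselves differed by 2.90-fold. The group means were 2343 ± 1615 (SD, n = 2) and 8.20 ± 5.86, 286-fold lower in *Bmal1* cKO. The ratio of pooled reads had a 95% exact counting interval of 162 to 478-fold, which covers counting error only, since reads were not counted by molecule. The log2 fold change was -7.96, the second lowest of all 13983 genes tested (rank 2), and -7.50 once GC content and length were corrected for. Markers of neutrophils, the other main source of lipocalin-2, moved with it. The 14 that were listed summed to 16343 and 37859 normalized counts in control mice 1 and 2 and to 8420 and 6391 in *Bmal1* cKO mice 1 and 2, with the granule genes *Ngp* and *Camp* at 0 in both *Bmal1* cKO libraries. Control mouse 2 had more *Lcn2* and a higher sum of these markers than control mouse 1. Not every marker followed, as *Ltf* (275 and 202 normalized counts in control mice 1 and 2) and *Camp* were higher in control mouse 1. *Camp* had only 13 and 5 reads in the controls and was not tested. The part of neutrophils in the values of *Lcn2* was not tested.

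*Saa1* was the most abundant of the 6 genes in control mice. It had 8577 and 15861 normalized counts in control mice 1 and 2, and 1870 and 2236 in *Bmal1* cKO mice 1 and 2. The groups did not overlap. The means were 12219 ± 5151 (SD, n = 2) and 2053 ± 259, 5.95-fold lower in *Bmal1* cKO. The log2 fold change was -2.51, and -2.12 once corrected for GC content and length. *Saa1* therefore kept at least 1870 normalized counts in the same libraries in which *Lcn2* had 12 and 3 reads.

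*Saa3* had 5004 and 3225 normalized counts in control mice 1 and 2, and 62.7 and 46.0 in *Bmal1* cKO mice 1 and 2, where 61 and 34 reads were counted. The groups did not overlap, and here control mouse 1 was the higher of the controls. The means were 4114 ± 1258 (SD, n = 2) and 54.4 ± 11.9, 75.7-fold lower in *Bmal1* cKO. The log2 fold change of -6.20 held rank 22 from the lowest of all genes tested, and it was -5.75 after the correction. Markers of cells that also make *Saa3* were lower too. The 12 macrophage markers summed to 7716 and 2687 in control mice 1 and 2 and to 520 and 792 in *Bmal1* cKO mice 1 and 2, with *Cd163* at 0 in both of the latter. The 13 stromal and endothelial markers summed to 17232 and 4526 in the controls and to 572 and 693 in *Bmal1* cKO. Control mouse 1 was above control mouse 2 in *Saa3* and in both sums. Within *Bmal1* cKO, *Saa3* was higher in mouse 1 and both sums were higher in mouse 2. The part of these cells in the values of *Saa3* was not tested.

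*Saa2* was close to the limit of detection, with 8.45 and 13.6 normalized counts in control mice 1 and 2 and 1.03 and 1.35 in *Bmal1* cKO mice 1 and 2. These are 10, 16, 1 and 1 reads. Its mean fell under the minimum of 10 normalized counts set for testing, so only 5 of the 6 genes entered the fit. The pooled control reads were 9.41-fold above those of *Bmal1* cKO, with an exact counting interval of 2.36 to 81.8-fold. *Saa2* is a near copy of *Saa1*. The transcripts were identical in 572 of 612 aligned positions (93.5%) and the upstream stretches printed above in 95.2%. Of the 50-base windows of the *Saa2* transcript 9.12% also occurred in *Saa1*, but 0 of 553 windows of 100 bases and 0 of 503 windows of 150 bases, the read length, occurred in *Saa1* or *Saa3*. How reads that matched both genes were counted is not given in the sources used here, so the split between *Saa1* and *Saa2* is uncertain. *Saa2* held 0.0984% and 0.0854% of the reads of the pair in control mice 1 and 2, and 0.0550% and 0.0604% in *Bmal1* cKO mice 1 and 2, with overlapping counting intervals in all 4.

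The REG3 lectins did not follow the other 4 genes. *Reg3b* had 2568 and 426 normalized counts in control mice 1 and 2, and 1928 and 5251 in *Bmal1* cKO mice 1 and 2. The control mice lay 6.03-fold apart, and *Bmal1* cKO mouse 1 fell between them. The means were 1497 ± 1515 (SD, n = 2) and 3589 ± 2350, a log2 difference of +1.60 on overlapping groups, and of +1.29 after the correction. *Reg3g* had 1206 and 202 normalized counts in control mice 1 and 2, and 599 and 1377 in *Bmal1* cKO mice 1 and 2. Its means were 704 ± 711 and 988 ± 551, a log2 difference of +0.88, and of +0.67 after the correction. The libraries stood in the same order in both genes, with control mouse 2 lowest and *Bmal1* cKO mouse 2 highest. Leaving out 1 control mouse changed both differences, and turned that of *Reg3g*. Without control mouse 2 the log2 difference of *Reg3g* was -0.41 and that of *Reg3b* +0.31, and without control mouse 1 they were +2.17 and +2.90.

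**Figure D1:**
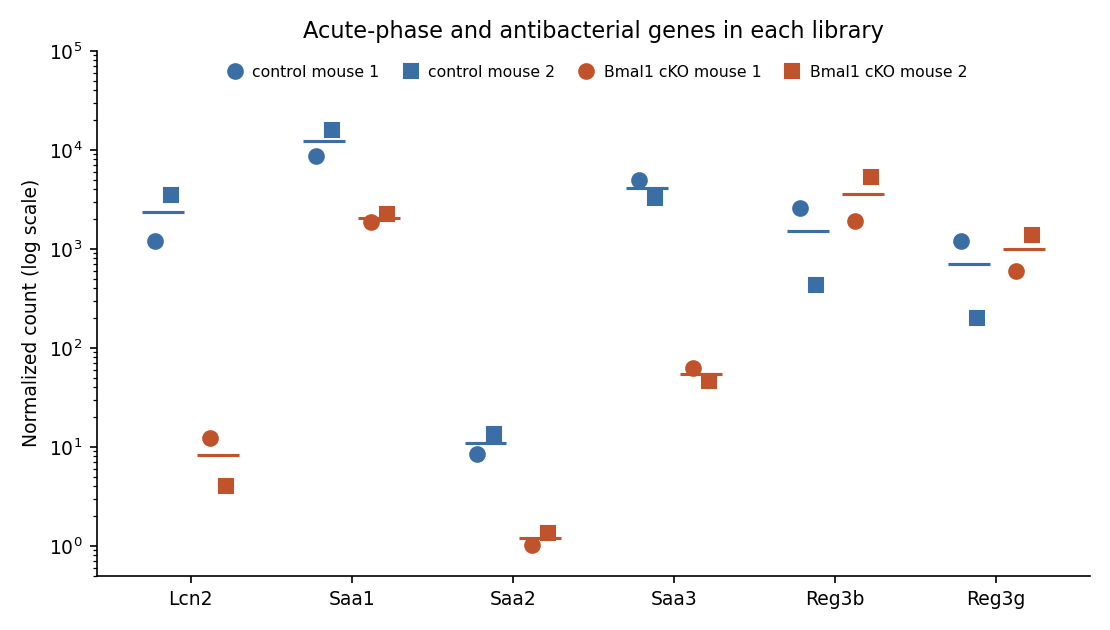
Normalized counts (log axis) of the 6 genes in each library, with circles for mouse 1 and squares for mouse 2 of each group, blue for control and orange for Bmal1 cKO. Horizontal lines are group means. *Lcn2* and *Saa3* reached at most 62.7 normalized counts in the Bmal1 cKO libraries and at least 1201 in the control libraries, while the groups overlapped for *Reg3b* and *Reg3g*.

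Compared per kilobase of transcript, the order of the genes changed between the groups. In control mice *Saa1* was highest with 14083 and 26044 normalized counts per kilobase, above *Saa3* with 9016 and 5810. *Lcn2* (1313 and 3809), *Reg3b* (3280 and 544) and *Reg3g* (1565 and 261) followed with overlapping values, so their order was not set beyond the spread of the mice. *Saa2* was lowest with 13.0 and 20.8. In *Bmal1* cKO mice *Reg3b* (2462 and 6707) and *Saa1* (3071 and 3671) were at the top and overlapped. *Reg3g* followed with 776 and 1786, then *Saa3* with 113 and 82.8, *Lcn2* with 13.5 and 4.43 and *Saa2* with 1.58 and 2.07. Neighbours among these last 4 did not overlap. The order of *Lcn2* and *Saa2* rests on 12 and 3 reads against 1 and 1, so in mouse 2 it is not set beyond counting error. The 6 genes together took 0.159% and 0.194% of the reads on listed genes in control mice 1 and 2, and 0.0326% and 0.0640% in *Bmal1* cKO mice 1 and 2. *Lcn2* and the *Saa* genes made up 14790 and 22585 normalized counts in the controls against 1946 and 2287 in *Bmal1* cKO. *Reg3b* and *Reg3g* made up 3775 and 628 in the controls against 2526 and 6629.

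Within each family the proportions of the members also differed between libraries. *Reg3g* made up 31.96% of the *Reg3* reads in control mouse 1 (95% exact interval 30.6 to 33.4) and 32.1% (28.8 to 35.6) in control mouse 2, although *Reg3b* was 6.03-fold and *Reg3g* 5.98-fold apart between these mice. It made up 23.7% (22.03 to 25.4) in *Bmal1* cKO mouse 1 and 20.8% (19.7 to 21.9) in *Bmal1* cKO mouse 2. The shares of the control mice were thus within counting error of each other and above both *Bmal1* cKO mice. *Saa3* made up 36.8% (36.1 to 37.6) and 16.9% (16.4 to 17.4) of the *Saa1* and *Saa3* reads in control mice 1 and 2, and 3.25% (2.49 to 4.15) and 2.01% (1.399 to 2.80) in *Bmal1* cKO mice 1 and 2. Per length, *Saa1* was 1.56 and 4.48 times as abundant as *Saa3* in the controls and 27.2 and 44.3 times in *Bmal1* cKO. *Reg3b* and *Reg3g* shared 71.1% of aligned transcript positions and no window of 50 bases, and *Saa1* and *Saa3* shared 68.9%.

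**Figure D2:**
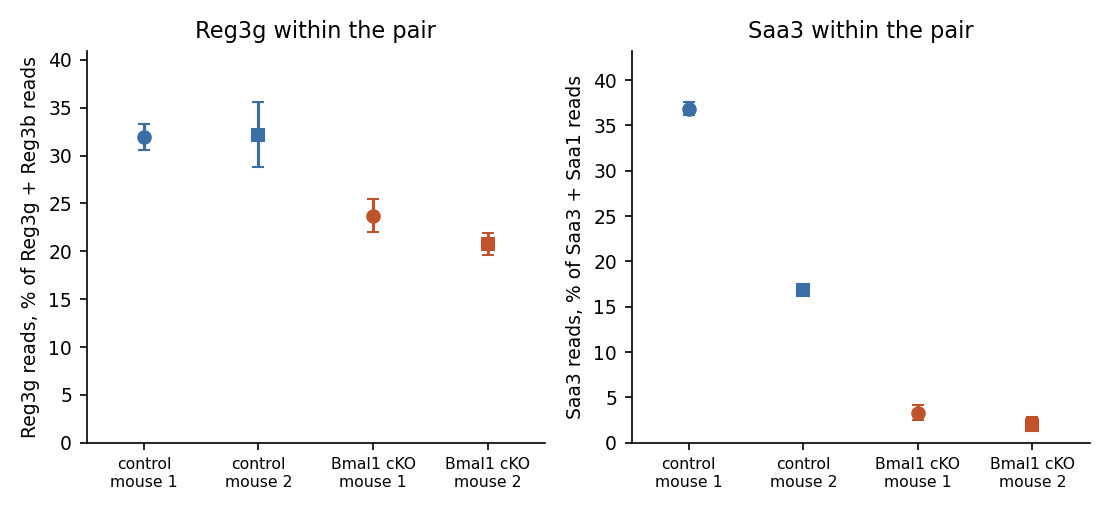
Share of *Reg3g* in the reads of *Reg3g* and *Reg3b* (left) and of *Saa3* in the reads of *Saa3* and *Saa1* (right), in percent, in each of the 4 libraries. Bars are 95% exact binomial intervals for counting error. *Reg3g* held about 32% in both controls and 20.8% to 23.7% in Bmal1 cKO, and *Saa3* fell from at least 16.9% to at most 3.25%.

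Other ways of processing moved *Lcn2*, *Saa1* and *Saa3* little relative to their differences. Over all alternatives *Lcn2* lay between -8.73 and -7.19 on the log2 scale, *Saa3* between -6.52 and -5.75 and *Saa1* between -2.95 and -2.07. *Saa2*, which had a value under 7 alternatives, lay between -2.74 and -1.35, lowest in size with a pseudocount of 5, as its counts are of that order. *Reg3b* lay between +0.31 and +2.90 and *Reg3g* between -0.41 and +2.17, both ranges set by leaving out 1 control mouse. The GC contents of the 4 lower genes, 51.4% to 54.0%, were above those of *Reg3b* (46.2%) and *Reg3g* (47.1%). All 6 lay between the percentiles 29.1 and 71.0 of the GC content of the genes tested.

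**Figure D3:**
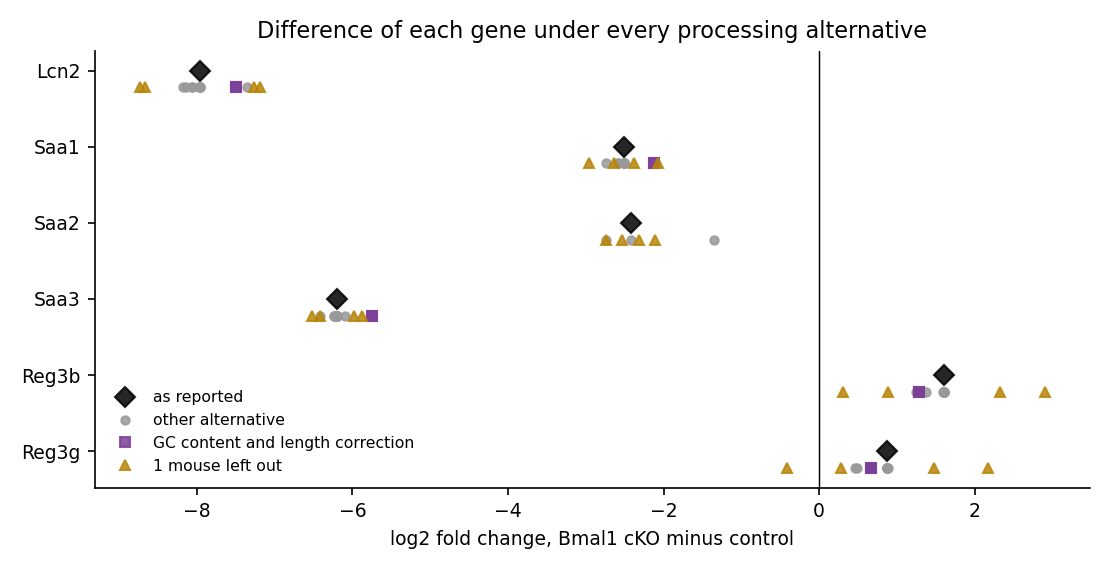
The log2 fold change (Bmal1 cKO minus control) of each gene as reported (black diamonds) and under each alternative, with triangles for fits that leave out 1 mouse and squares for the correction for GC content and length. *Lcn2*, *Saa1*, *Saa2* and *Saa3* stayed below 0 throughout, and *Reg3g* crossed 0 when control mouse 2 was left out.

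The signals that induce these genes were read from a list of 35 cytokines, receptors and factors, of which 34 were listed and 32 tested. The list also holds genes that restrain these pathways, among them *Socs3* and *Nfkbia*, both called lower (log2 fold change -2.81 and -1.79). A lower call is therefore not always a lower inducer. By limma with Benjamini-Hochberg adjustment 15 of the 32 were lower (46.9%, against 27.7% of all genes), 2 were higher (6.25%, against 29.0%) and 15 did not pass. Their median log2 fold change was -1.03, against -0.04 over all genes tested. Once corrected for GC content and length, 12 were lower and 2 higher. Without *Bmal1* cKO mouse 2 the lower calls numbered 9, and without either *Bmal1* cKO mouse only 1 gene was called higher.

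Among the cytokines, *Il22* had 95.5 and 2.54 normalized counts in control mice 1 and 2 and 4.11 and 1.35 in *Bmal1* cKO mice 1 and 2. The high value came from control mouse 1 alone, and the groups overlapped (log2 fold change -2.41, standard error 1.66, adjusted p = 0.257). *Il6* had 112 and 16.1 in the controls and 17.5 and 6.76 in *Bmal1* cKO, also overlapping (log2 fold change -1.87, adjusted p = 0.164). Corrected for GC content and length, its log2 fold change was -3.27 (adjusted p = 0.0522). *Il17a* was counted with 11, 3, 0 and 2 reads and was not tested. *Il1b*, the myeloid cytokine, fell from 879 and 4261 to 265 and 173 (log2 fold change -3.17, standard error 0.72, adjusted p = 0.0148). *Tnf* fell from 189 and 246 to 55.5 and 36.5 (log2 fold change -2.23, standard error 0.30, adjusted p = 0.00257). *Osm*, an IL-6 family cytokine made largely by myeloid cells, fell from 87.9 and 337 to 11.3 and 1.35 (log2 fold change -5.01, standard error 1.01, adjusted p = 0.00967). *Osm* did not pass without control mouse 2 or *Bmal1* cKO mouse 2 (adjusted p = 0.0742 and 0.0617), nor *Il1b* without *Bmal1* cKO mouse 1 or 2 (adjusted p = 0.0893 and 0.128). *Il1b* and *Osm*, like *Lcn2*, were higher in control mouse 2. *Il22* and *Il6* were higher in control mouse 1, as *Reg3b* and *Reg3g* were. Within *Bmal1* cKO these cytokines were higher in mouse 1, on 4 and 1 reads for *Il22* and 17 and 5 for *Il6*. The *Reg3* genes were higher in *Bmal1* cKO mouse 2. The part of these cytokines in the *Reg3* values was not tested.

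On the receiving side, *Il22ra1*, the epithelial receptor chain for IL-22, was 455 and 502 in the controls and 350 and 264 in *Bmal1* cKO (log2 fold change -0.65, adjusted p = 0.0247), but +0.093 with adjusted p = 0.649 after the correction. *Stat3*, the factor that IL-22 and IL-6 activate, was 2616 and 2392 against 2503 and 2507, a log2 difference of 0.00 (standard error 0.09, adjusted p = 0.986). *Socs3*, a STAT3 target that restrains the pathway, fell from 2039 and 1501 to 219 and 283 (log2 fold change -2.81, standard error 0.20, adjusted p = 5.42e-04), and by 1.74 after the correction (adjusted p = 0.00809). *Il17ra*, the shared IL-17 receptor chain, fell from 451 and 512 to 219 and 223 (log2 fold change -1.12, adjusted p = 0.00181). *Rela*, the p65 subunit of NF-κB, fell from 994 and 1030 to 285 and 276 (log2 fold change -1.85, adjusted p = 5.33e-04), and by 0.69 after the correction (adjusted p = 0.00897). *Nfkbiz*, a nuclear cofactor of NF-κB, was higher with 1298 and 1723 against 1979 and 2359 (log2 fold change +0.53, adjusted p = 0.0417), as was the adaptor *Traf6* (+0.82, adjusted p = 0.0015). Leaving out a mouse ended the calls of *Il22ra1* and *Nfkbiz* in 3 of 4 cases each, all but *Bmal1* cKO mouse 1 for *Il22ra1* and all but control mouse 2 for *Nfkbiz* (adjusted p between 0.0932 and 0.224). Neither *Nfkbiz* nor *Traf6* passed after the correction (adjusted p = 0.103 and 0.348), where *Tyk2* and *Il17rc* were the 2 higher genes. *Nfkbiz* did not pass with library totals or by edgeR either (adjusted p = 0.144 and 0.0561).

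Both C/EBP genes of the list were lower. *Cebpb* fell from 819 and 772 normalized counts in control mice 1 and 2 to 31.9 and 52.7 in *Bmal1* cKO mice 1 and 2, 18.8-fold by the means (log2 fold change -4.24, standard error 0.27, adjusted p = 5.33e-04). *Cebpd* fell from 1696 and 349 to 81.3 and 128, 9.75-fold by the means (log2 fold change -2.90, standard error 0.73, adjusted p = 0.0204). After the correction they were lower by log2 values of -2.14 (adjusted p = 0.00751) and -2.78 (adjusted p = 0.0455). *Cebpb* kept its call under all 15 alternatives. *Cebpd* lost its call under 3 of 15, among them those without either *Bmal1* cKO mouse. No binding was measured in these libraries, so the motif matches given above were not tested against the levels of these factors.

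**Figure D4:**
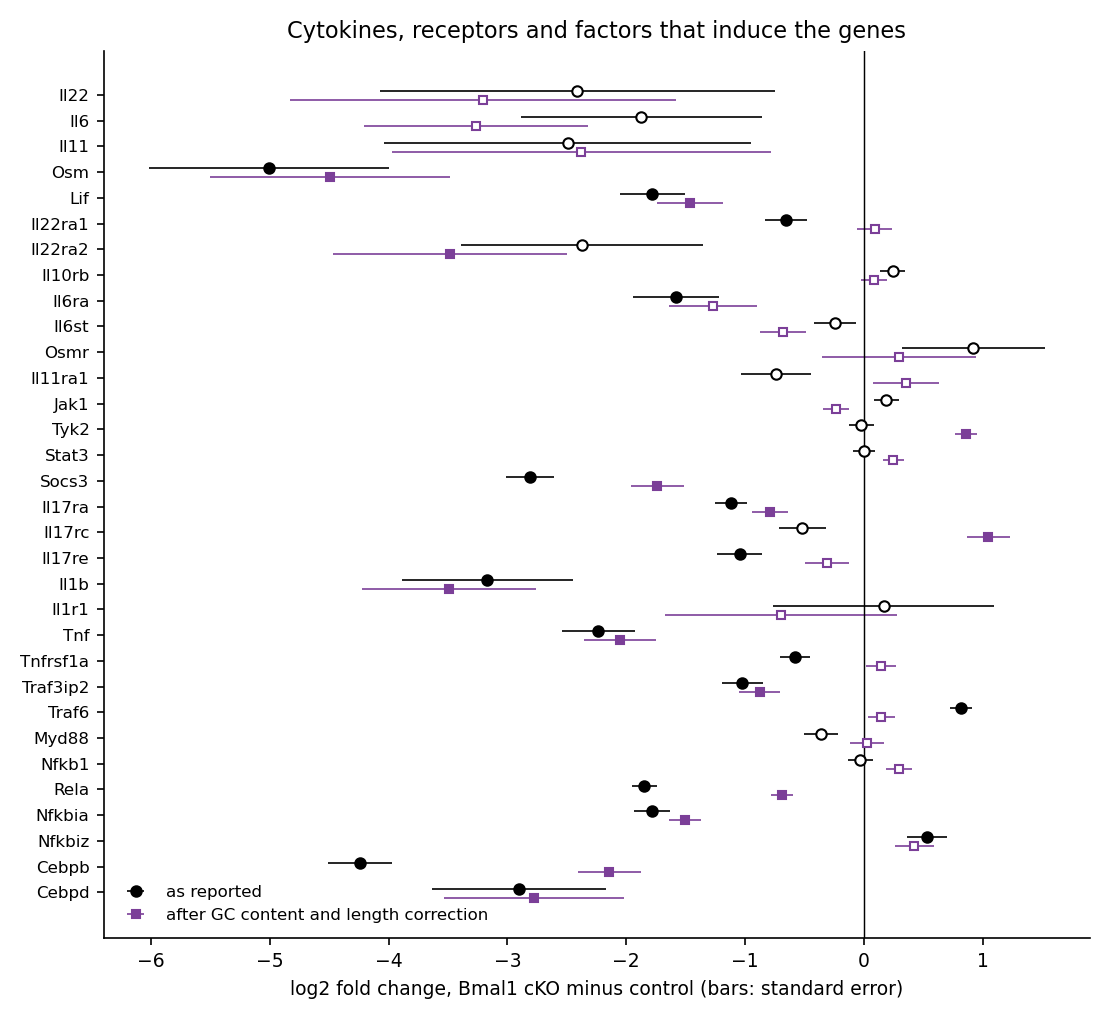
The log2 fold change (Bmal1 cKO minus control, with standard error) of the 32 tested genes of the inducing signals, a list that also holds genes that restrain them. Black circles are values as reported and purple squares those after correction for GC content and length. Filled symbols passed an adjusted p of 0.05. As reported, *Osm*, *Cebpb* and *Il1b* were the lowest genes that passed, and *Stat3* lay at 0.00. After the correction the lowest that passed were *Osm* (-4.50), *Il1b* (-3.49) and *Il22ra2* (-3.48), and *Stat3* lay at +0.25.

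Of 27 other acute-phase genes, 15 were listed and 13 tested, and 5 were lower (38.5%, against 27.7% of all genes), 0 higher and 8 did not pass. At an unadjusted p under 0.05, 7 were lower and 0 higher. DESeq2 on the recovered reads called 9 lower and edgeR 5, and neither called one higher. Leaving out control mouse 2 gave 10 lower calls, and leaving out *Bmal1* cKO mouse 1 or 2 gave 2 or 3. The median log2 fold change was -2.0, and after the correction 5 were lower and 1 higher. *Saa4*, the fourth serum amyloid gene, was not among the listed genes. *Serpina3n*, a protease inhibitor, fell from 3412 and 461 to 8.23 and 21.6 normalized counts (log2 fold change -6.44, standard error 0.98, adjusted p = 0.00372). *Hp*, the haemoglobin-binding protein haptoglobin, fell from 365 and 1251 to 35.0 and 21.6 (log2 fold change -4.57, standard error 0.60, adjusted p = 0.00236), and by 3.87 after the correction (adjusted p = 0.0122). *Serpina3m* had 231 and 19 reads in the controls and 0 in both *Bmal1* cKO libraries, at least 29.6-fold lower when 3 reads per library are taken as the floor, or 4.51-fold from control mouse 2 alone (adjusted p = 0.0139, and 0.117 with only genes of a mean of at least 50 tested). Without *Bmal1* cKO mouse 1 the adjusted p was 0.0539 for *Serpina3n* and 0.0869 for *Serpina3m*, and without *Bmal1* cKO mouse 2 it was 0.0885 for *Serpina3m*. The 8 that did not pass held *Lbp* and *Cd14*, which bind bacterial lipopolysaccharide. *Cd14* was 1636 and 5241 against 1479 and 1237 (log2 fold change -1.11, adjusted p = 0.12).

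Of 27 other epithelial antibacterial genes 20 were listed and tested. By limma 9 were lower (45.0%, against 27.7% of all genes), 3 higher (15%, against 29.0%) and 8 did not pass, with a median of -0.44, and after the correction 7 were lower and 2 higher. *Reg4*, the other listed REG lectin, had 1387 and 1348 normalized counts in the controls and 1220 and 1356 in *Bmal1* cKO, overlapping (log2 fold change -0.09, adjusted p = 0.464). *Reg1*, *Reg2*, *Reg3a* and *Reg3d* were not among the listed genes. *Ang4*, a bactericidal ribonuclease of goblet and Paneth cells, fell from 1315 and 1780 to 185 and 241 (log2 fold change -2.85, standard error 0.20, adjusted p = 5.42e-04). *Zg16*, a goblet cell lectin that aggregates Gram-positive bacteria, fell from 40743 and 100296 to 8089 and 14045 (log2 fold change -2.58, standard error 0.48, adjusted p = 0.00747). *Slpi*, a protease inhibitor with antibacterial activity, fell from 2559 and 6023 to 775 and 500 (log2 fold change -2.66, standard error 0.43, adjusted p = 0.00457).

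The 3 higher genes of that list were *Nox1*, *Dmbt1* and *Wfdc2*. *Nox1*, the NADPH oxidase of colonic epithelium, rose from 438 and 396 to 2640 and 2764 (log2 fold change +2.70, standard error 0.10, adjusted p = 5.33e-04), and by +1.96 after the correction (adjusted p = 0.0037). *Dmbt1*, a secreted protein that agglutinates bacteria, was 84385 and 82747 against 130480 and 177035 (log2 fold change +0.86, adjusted p = 0.0467). After the correction it was +0.94 (adjusted p = 0.108), and its call was lost under 10 of 15 alternatives. *Wfdc2* was 468 and 462 against 583 and 635 (log2 fold change +0.39, adjusted p = 0.0296), +1.35 after the correction (adjusted p = 0.0038), and did not pass with library totals or by DESeq2 (adjusted p = 0.252 and 0.086). Leaving out any 1 of the 4 mice left *Nox1* as the only higher call of this list. It ended the call of *Zg16* without either *Bmal1* cKO mouse (adjusted p = 0.0946 and 0.0515) and that of *Slpi* without *Bmal1* cKO mouse 2 (adjusted p = 0.0617).

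Receptors for the 6 proteins were read as a list of 10 genes, of which 9 were listed and 8 tested, with 3 lower (37.5%, against 27.7% of all genes), 1 higher (12.5%, against 29.0%) and 4 that did not pass (median log2 fold change -0.51). After the correction and without control mouse 2 the higher calls numbered 2. *Slc22a17*, a receptor for lipocalin-2, had 43, 29, 1 and 0 reads in control mice 1 and 2 and *Bmal1* cKO mice 1 and 2, a ratio of pooled reads of 52.1 with an exact counting interval of 9.06 to 2088 (adjusted p = 0.00934, and 0.0246 after the correction). *Fpr2*, through which serum amyloid A attracts leukocytes, fell from 85.3 and 169 to 20.6 and 21.6 (log2 fold change -2.45, standard error 0.42, adjusted p = 0.00562). Without *Bmal1* cKO mouse 1 or 2 its adjusted p was 0.0521 or 0.0509. *Scarb1*, a lipoprotein receptor that also takes up serum amyloid A, fell from 425 and 517 to 157 and 107 (log2 fold change -1.85, standard error 0.24, adjusted p = 0.00209), and by 1.10 after the correction (adjusted p = 0.0186). *Tlr4*, the receptor for lipopolysaccharide to which serum amyloid A has also been linked, rose from 563 and 501 to 1784 and 1867 (log2 fold change +1.78, standard error 0.10, adjusted p = 5.33e-04), and by +0.56 after the correction (adjusted p = 0.0183). *Tlr2* (284 and 727 against 439 and 474) and *Extl3*, linked to REG3 signalling (517 and 545 against 650 and 549), did not pass, nor did *Cd36* and *P2rx7*. *Extl3* was higher after the correction (log2 fold change +0.64, adjusted p = 0.0212). *Ager* was listed but not tested.

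The label of colonic epithelium was checked with 15 epithelial markers, all of them listed. They summed to 232204 and 311736 normalized counts in control mice 1 and 2 and to 188863 and 214533 in *Bmal1* cKO mice 1 and 2, and *Epcam* was 17455 and 21771 against 18588 and 20320 (log2 fold change 0.00, adjusted p = 0.984). *Krt8* (33319 and 37623 against 39915 and 38937) did not pass (adjusted p = 0.45, and 0.0436 after the correction at +1.02). The goblet cell mucin *Muc2* fell from 62753 and 101737 to 24129 and 37690 (log2 fold change -1.41, adjusted p = 0.0172, and -1.21 with adjusted p = 0.0685 after the correction). Of the 15, 5 were lower (33.3%, against 27.7% of all genes), 2 higher (13.3%, against 29.0%) and 8 did not pass. The lower calls numbered 8 with library totals or DESeq2 and 3 after the correction, and the higher calls 1 with library totals. Lower and higher calls were 2 and 0 without *Bmal1* cKO mouse 1, 3 and 0 without *Bmal1* cKO mouse 2, and 1 was higher without control mouse 1. The libraries also held RNA of other cells, more so in the controls. Of the neutrophil markers 13 of 13 tested were lower (median log2 fold change -3.71), of the macrophage markers 10 of 12 (-3.34, or -3.22 with *Cd163* at its bound) and of the stromal and endothelial markers 11 of 13 (-3.76), against 27.7% of all genes, with 0 higher in each by limma, at an unadjusted p under 0.05, by edgeR and by DESeq2. After the correction the lower calls numbered 11, 8 and 9 (against 15.7% of all genes), without *Bmal1* cKO mouse 1 they numbered 8, 3 and 5, and without *Bmal1* cKO mouse 2 they numbered 5, 6 and 6. The highest neutrophil markers in controls, *Pglyrp1* (6107 and 8117) and *Ly6g* (5801 and 7474), kept 4670 and 3389 and 2918 and 2549 in *Bmal1* cKO and made up most of that sum there. The call of *Pglyrp1* was lost after the correction (log2 difference +0.13, adjusted p = 0.694). *Lyz2*, the most abundant macrophage marker, fell from 3749 and 1335 to 203 and 419. *Col3a1* fell from 4774 and 927 to 155 and 119, and *Dcn* was 4286 and 401 against 131 and 219. Of the T and innate lymphoid cell markers, whose cells can make IL-22 and IL-17, 4 of 8 tested were lower (50%, against 27.7% of all genes) and 1 higher (12.5%, against 29.0%). Fewer were lower without control mouse 1 or either *Bmal1* cKO mouse. Among the lower was *Cd4*, which fell from 119 and 19.5 to 6.17 and 2.70 (log2 fold change -3.27, adjusted p = 0.0357, and -3.07 with adjusted p = 0.0715 after the correction).

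**Figure D5:**
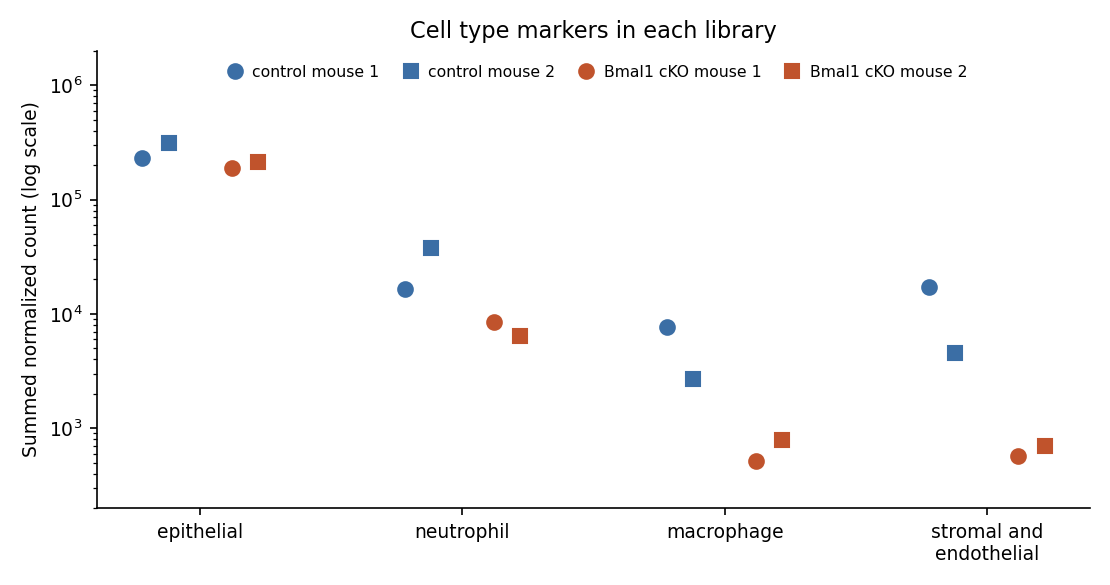
Summed normalized counts (log axis) of the listed markers of 4 groups of cell types in each library, with circles for mouse 1 and squares for mouse 2, blue for control and orange for Bmal1 cKO. The sums of all 4 groups, the epithelial one among them, were lower in both Bmal1 cKO libraries than in both controls. Control mouse 2 was highest for the epithelial and neutrophil sums and control mouse 1 for the macrophage and the stromal and endothelial sums.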

How the data were processed

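Per the labels and methods, the authors sequenced paired reads of 150 bases, aligned them to GRCm38 (mm10) with STAR 2.2.1 and compared the groups with DESeq2 1.40.1. The labels name another library kit than the methods, and the strand setting, the counter and the annotation are not given in the sources used here. For each mouse the authors deposited a normalized signal, the reads of each gene over a size factor from DESeq2, beside the mean of the 4 mice. Columns of the authors' own comparison hold a log2 fold change and its error, a score of the Wald type, and the p-value raw and adjusted, and they were not used.

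All values were whole multiples of 1 read within 0.01 reads (100% in each library), so whole reads were recovered. The lowest mean listed was 3.39, so any gene below it was not analysed here. Genes with a mean of at least 10 were tested with limma 3.58.1 on log2(value + 1) with a mean-variance trend. The correction for GC content and length was a loess (span 0.3) within each library, with 1 transcript per gene from GENCODE M21, matched for 16003 genes. Reads of the same group differed by more than sampling noise (chi-square per gene 46.2 between control and 11.1 between *Bmal1* cKO mice). Alternatives were pseudocounts of 0.5 and 5, other filters and scalings, edgeR 4.0.16 and DESeq2 1.42.0 on the reads, a block for the mouse number and leaving out each mouse. Those of single named genes were added after the values were seen. The limma fit and the correction for GC content and length were tested on simulated data. The spread between mice in that simulation was set and not taken from these libraries. No exact permutation test was run, since 2 mice against 2 cannot reach 0.05.

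The 6 genes and all lists were chosen with earlier results of these data known. The genes named were the 6, their relatives and receptors, the best known inducers, from each of the 3 functional lists up to 3 called genes in each direction with the largest fold change and a mean of at least 50, the 2 markers of each cell type highest in controls and those at 0 in a group, and the 3 nearest patterns of each gene. *Tyk2*, *Il17rc*, *Lrg1*, *Lbp*, *Cd14* and *Epcam* were named after their values were seen. Some genes that this rule names are not reported here.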

Additional observations from a re-analysis of the deposited data

How the results depend on the processing

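Leaving out 1 of 2 mice cannot move a difference by more than the spread between mice, so it is no check of stability, and without control mouse 2 *Reg3g* turned from 0.88 to -0.41. Under the other alternatives run the differences of *Lcn2*, *Saa1*, *Reg3b* and *Reg3g* moved by less than that spread. That of *Saa3* moved by more with the correction for GC content and length, to -5.75, with and without the replicate block, and that of *Saa2* with a pseudocount of 5, to -1.35. Leaving out 1 mouse gave -8.73 to -7.19 for *Lcn2*, -2.95 to -2.07 for *Saa1*, -2.74 to -2.11 for *Saa2*, -6.52 to -5.88 for *Saa3*, 0.31 to 2.90 for *Reg3b* and -0.41 to 2.17 for *Reg3g*. The correction gave 2201 genes lower and 2311 higher, and 1894 and 1996 with the block. Leaving out 1 mouse gave 2205 to 2852 genes lower and 2654 to 3154 higher, with fewer mice in the fit. For the inducing signals it gave 9 to 19 lower and 1 to 2 higher, and library totals and edgeR gave 1 higher. For the other acute-phase genes it gave 2 to 10 lower, DESeq2 gave 9 lower, and the correction gave 1 higher (*Lrg1*), with and without the block. For the other antibacterial genes it gave 1 higher in each of 4 cases, and library totals gave 1. *Il22ra1* turned from -0.65 to 0.093 with the correction, with and without the block. Apart from what the construction of an alternative shows, the cause was not tested. Library totals moved the median of all genes from -0.04 to -0.26, and *Lcn2* to -8.17, *Saa1* to -2.74 and *Saa3* to -6.42.

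The mouse numbers did not pair the samples (correlation of their deviations -0.09). With a block for the replicate number 3789 genes were lower and 3899 higher. Depth limits *Saa2* and *Lcn2* in *Bmal1* cKO, which rest on 1 to 12 reads per library.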

Other observations

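The genes with the nearest pattern to each of the 6 were sought among the 9983 genes whose normalized counts averaged 100 or more, as the Euclidean distance over the 4 libraries between log2 values centred on the mean of each gene. The likeness rests on 4 libraries of 2 groups and is a description. Nearest to *Lcn2* were *Chil3* (distance 1.01), *Hba-a1* (1.10) and *Ngp* (1.16). *Hba-a1*, a haemoglobin chain of red blood cells, had 399 and 591 normalized counts in the controls and 2.06 and 1.35 in *Bmal1* cKO. Nearest to *Saa3* were *Crispld2* (0.73), *Lsp1* (0.83) and *Tyrobp* (0.89), each of them closer to it than *Lcn2* (2.43) or *Saa1* (3.87) was. Nearest to *Saa1* were *Tff3* (0.21), the goblet cell trefoil peptide, and *Scnn1b* (0.22), a subunit of the epithelial sodium channel. *Tff3* had 11848 and 25286 normalized counts in the controls and 3010 and 3099 in *Bmal1* cKO. Nearest to *Saa2*, whose few reads make its pattern coarse, were *Cd53* (0.16), *Saa1* (0.21) and *Dusp8* (0.22). *Reg3g* was the nearest of all to *Reg3b* (0.75), before *Tifa* (1.14) and *Hgf* (1.14). Nearest to *Reg3g* were *Il1r1* (0.74), *Reg3b* (0.75) and *Hgf* (0.97). *Il1r1*, the receptor for IL-1, had 604 and 95.7 normalized counts in control mice 1 and 2 and 161 and 453 in *Bmal1* cKO mice 1 and 2.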
